A study of Mus musculus with 9 samples.

Results

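The genes of the rod light-response cascade downstream of the visual pigment were followed through 3 sorted populations of young mouse retina. They are the rod transducin subunits Gnat1, Gnb1 and Gngt1, the rod phosphodiesterase subunits Pde6a, Pde6b and Pde6g, the rod cyclic-nucleotide-gated channel subunits Cnga1 and Cngb1, and the rod exchanger Slc24a1. These 9 genes were chosen by name from the 18193 genes measured, and 15 probe sets carried 1 of their symbols alone. For each gene the probe set with the highest mean over the 9 arrays was used, and the others served as a check. The first group was the GFP-positive fraction of rhoEGFP reporter mice at postnatal day 4 (P4), the rhoGFP-positive group. The second was the GFP-negative fraction of the same line and age, the rhoGFP-negative group, and the last was the GFP-positive fraction of pNestin-GFP reporter mice at postnatal day 0 (P0), the nestinGFP-positive group. The mice of all groups carried a GFP reporter on a C57BL/6J-129/Ola background, and each group held 3 arrays. Each array measured 200 ng of RNA from the sorted retinal cells of a pool of 6 to 8 mice, so an array is a pool and not an animal. How the reporter constructs were made is not stated in the labels.

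In a rod, light-activated visual pigment switches on transducin, a heterotrimeric G protein whose alpha subunit then binds the inhibitory subunits of phosphodiesterase 6. The released enzyme breaks down cyclic GMP, the cation channel that cyclic GMP holds open closes, and the cell hyperpolarises while the exchanger goes on carrying calcium out. Rods are born late in the mouse retina, and outer segments, where this machinery is stored, grow only after the first postnatal days.

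All 9 genes were higher in the rhoGFP-positive group than in the rhoGFP-negative group at P4, and again higher than in the nestinGFP-positive group at P0. In the fraction comparison limma (adjusted p below 0.05 after Benjamini-Hochberg adjustment over all genes, and a log2 difference of at least 1) called 9 of 9 higher, where 3.61% of all genes were called higher, and 0 lower, where 7.32% of all genes were. Against the nestinGFP-positive group it again called 9 of 9 higher and 0 lower, where 5.06% of all genes were called higher and 10.5% lower. These comparisons share the rhoGFP-positive arrays and are not independent. In the comparison with the nestinGFP-positive group, line, age and reporter differ together and cannot be told apart. The median log2 difference of the 9 genes was 3.62 in the first and 4.54 in the second, and that of all genes was 0.0094 and 0.064. The 9 genes did not move by the same amount: the log2 differences between the P4 fractions ran from 1.38 for Gnb1 to 4.93 for Cnga1. For each gene the 3 rhoGFP-positive arrays lay above all 6 other arrays. Of all genes, 17.9% had rhoGFP-positive arrays entirely above the rhoGFP-negative arrays, and 24.4% had them entirely above the nestinGFP-positive arrays. Since sorted pools were measured, fewer cells that express a gene and less RNA per cell cannot be told apart. In the remaining comparison, that of the rhoGFP-negative with the nestinGFP-positive group, none of the 9 genes was called. Pde6b came nearest (log2 difference 1.58, limma adjusted p = 0.0758). With a replicate block Pde6b alone was called (limma adjusted p = 0.00352), but no label ties the replicate numbers of these groups to each other.

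**Figure D1:**
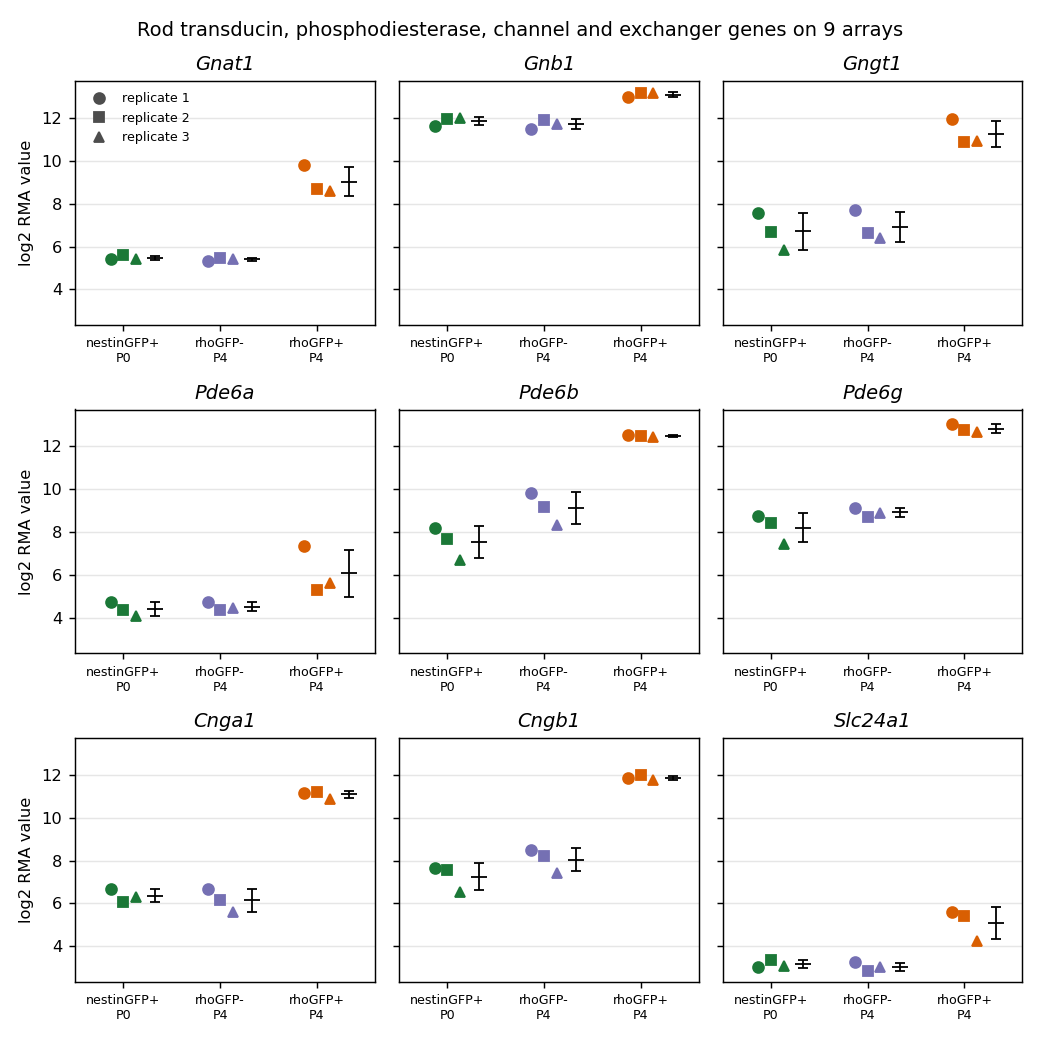
Log2 RMA value (vertical axis) of each of the 9 rod genes on each of the 9 arrays, by group (horizontal axis), with the mean and SD of each group (n = 3) as a bar beside the points and the replicate number as the point shape. In all 9 panels the rhoGFP-positive points lie above the other 6 points.

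Transducin came first. Gnat1 encodes the rod alpha subunit, which binds GTP and carries the signal to phosphodiesterase, and it lies at chr9:107674437-107679634 (GRCm38.p6). It was read by 1 probe set. Its log2 values were 9.79, 8.67 and 8.61 in the rhoGFP-positive replicates 1 to 3, 5.34, 5.46 and 5.40 in the rhoGFP-negative and 5.41, 5.59 and 5.42 in the nestinGFP-positive replicates. The lower 6 arrays lay close together and the lower groups overlapped, while replicate 1 of the rhoGFP-positive group stood above the other arrays of its group. The difference between the P4 fractions was 3.62 ± 0.27 (SE; limma adjusted p = 1.37e-05), and against the P0 group it was 3.55 ± 0.27 (adjusted p = 8.49e-06). Both lower group means, 5.40 and 5.47, fell below log2 6.26, the 40th percentile of all gene means. For genes as dim as this no fold is given, because RMA compresses differences at low signal.

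Gnb1 encodes the beta subunit, which rods share with many other cells. With the probe sets used and all 9 arrays, it had the smallest rise of the 9 genes. This order was not stable. Between the P4 fractions Pde6a fell to 0.93 without rhoGFP-positive replicate 1, while Gnb1 stayed at 1.27 or more with any 1 array left out. The Gnb1 values were 12.95, 13.16 and 13.13 in the rhoGFP-positive, 11.46, 11.90 and 11.73 in the rhoGFP-negative and 11.64, 11.92 and 11.98 in the nestinGFP-positive replicates. Its signal was thus high on all 9 arrays. The rise was 2.61-fold between the P4 fractions (log2 1.38 ± 0.14 SE, limma adjusted p = 8.73e-05) and 2.36-fold against the P0 group (1.24 ± 0.14, adjusted p = 0.000105). A second probe set of Gnb1 gave 1.82 and 1.91 for these differences, above the 1.55 and 1.68 of Pde6a. The remaining Gnb1 probe set, with values of 4.01 or less on all arrays, gave 0.29 and 0.33.

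Gngt1 encodes the rod gamma subunit, whose lipid tail helps to hold the complex at the disc membrane. Its values were 11.93, 10.87 and 10.93 in the rhoGFP-positive replicates, 7.72, 6.64 and 6.38 in the rhoGFP-negative and 7.58, 6.69 and 5.85 in the nestinGFP-positive replicates. Replicate 1 was the highest array in each group, and no rhoGFP-positive array came near the other 6. The rise was 20.1-fold between the P4 fractions (log2 4.33 ± 0.48 SE, limma adjusted p = 0.000141) and 23.2-fold against the P0 group (4.54 ± 0.48, adjusted p = 6.36e-05). Of the 3 other Gngt1 probe sets, a pair gave 4.36 and 4.72 between the P4 fractions, and a dim one gave 0.63.

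**Figure D2:**
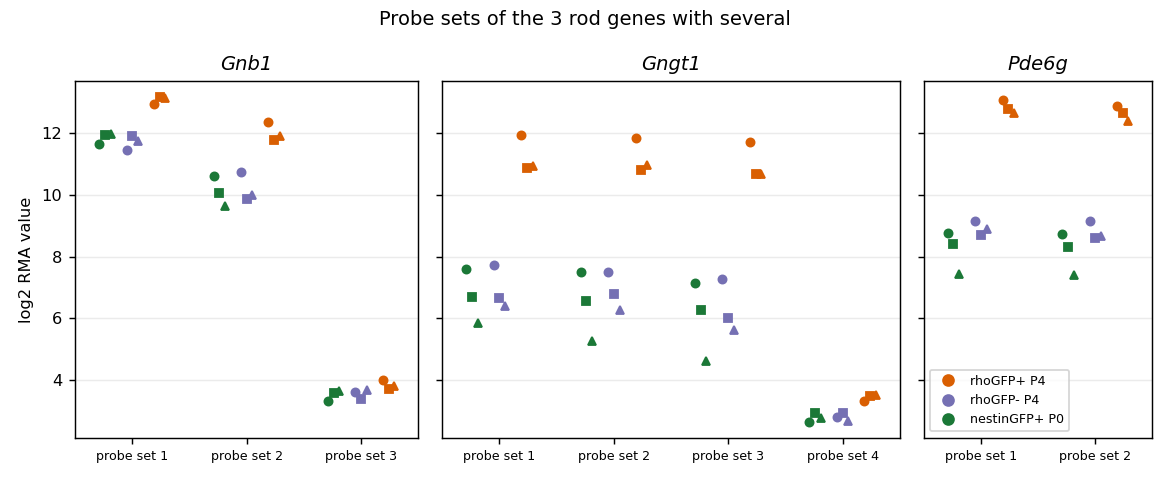
Log2 RMA value (vertical axis) on the 9 arrays for every probe set of Gnb1, Gngt1 and Pde6g, the 3 rod genes with more than 1, numbered from the highest mean to the lowest, with group as colour and replicate as point shape. The rhoGFP-positive points are highest for all probe sets, and the last probe sets of Gnb1 and Gngt1 lie near the bottom of the scale.

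The beta and gamma genes also differed in what lies before their start sites. Promoter windows, the 250 bases before an annotated start site, were in the RefSeq table (GRCm38.p6) for 6 of the 9 genes. These were Gnb1, Gngt1, Pde6b, Cnga1, Cngb1 and Slc24a1, while Gnat1, Pde6a and Pde6g were not in it. For Gnb1 and Gngt1 that site lies inside the annotated span of the gene. Each window was searched on both strands for 6 short words of letters. The photoreceptor homeodomain factor Crx is known to read TAATCC, and the leucine zipper factor Nrl is known to read sites with the core TGCTGA. The GC box, read by general activators, was searched as GGGCGG. The box that positions the start of many genes was searched as TATAAA. Other homeodomain factors of the retina read TAATTA. The E box of basic helix-loop-helix factors was searched as CAGCTG. A match is a description of the letters and not a measured binding site. TAATCC was found in 3 of the 6 windows, in Cnga1, Cngb1 and Gngt1, and in 6.25% of the 32851 windows of the table. TAATTA was in none of the 6 windows and in 4.84% of all. TATAAA, in 12.4% of all windows, was found as its reverse complement TTTATA in the Gngt1 window only among the 6. The Slc24a1 window held none of the words.

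The stretches that hold these words are printed 5′ to 3′ on the gene's own strand, with the word in capitals. The Gnb1 window had a GC content of 69.2%, the highest of the 6, against a median of 52.4% over all windows, and held 26 CG dinucleotides. GGGCGG, present in 32.7% of all windows, occurred in it at 75 and 70 bases before the start, overlapping by 1 base, and on the other strand at 45 bases. The first 189 bases of the Gnb1 window (chr4:155491111-155491299, plus strand) carry the overlapping pair. The rest of the window, with the match at 45 bases, lies inside the annotated span of the gene, which begins at chr4:155491300. The Gngt1 window had 44.0% GC and 4 CG dinucleotides, with GGATTA, the other strand of TAATCC, at 44 bases before the start. Only 30 bases around it are shown (chr6:3993952-3993981, plus strand), because the window lies inside the annotated span of the gene.
Gnb1: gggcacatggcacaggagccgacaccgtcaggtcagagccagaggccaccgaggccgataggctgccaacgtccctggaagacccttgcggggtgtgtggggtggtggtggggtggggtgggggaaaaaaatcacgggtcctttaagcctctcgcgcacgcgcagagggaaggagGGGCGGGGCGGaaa
Gngt1: tcatattaggggGGATTAtgaagaagcttt

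Phosphodiesterase 6 of rods is built from the catalytic subunits that Pde6a and Pde6b encode and from the inhibitory subunit that Pde6g encodes. All 3 genes rose, Pde6g and Pde6b from readily measured signals and Pde6a on a dim one. Pde6g (chr11:120447607-120453500) stood at 13.06, 12.78 and 12.64 in the rhoGFP-positive, 9.14, 8.71 and 8.89 in the rhoGFP-negative and 8.75, 8.41 and 7.44 in the nestinGFP-positive replicates. The rhoGFP-positive arrays lay over 3 log2 units above every other array. The rise was 15.0-fold between the P4 fractions (log2 3.91 ± 0.29 SE, limma adjusted p = 1.45e-05) and 24.6-fold against the P0 group (4.62 ± 0.29, adjusted p = 3.35e-06). A second Pde6g probe set gave 3.83 and 4.48.

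Pde6b stood at 12.51, 12.46 and 12.42 in the rhoGFP-positive, 9.81, 9.19 and 8.34 in the rhoGFP-negative and 8.18, 7.70 and 6.72 in the nestinGFP-positive replicates. Its 3 groups formed separate steps with no overlap, and the spread was 0.046 (SD, n = 3) in the rhoGFP-positive group against 0.738 and 0.743 in the lower groups. The rise was 10.2-fold between the P4 fractions (log2 3.35 ± 0.40 SE, limma adjusted p = 0.000222) and 30.5-fold against the P0 group (4.93 ± 0.40, adjusted p = 1.34e-05). Only 1 of the 18193 genes had a larger rise than Pde6b against the P0 group, where Pde6b held rank 2, while between the P4 fractions it held rank 28.

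The Pde6b window (chr5:108388123-108388372, plus strand, 49.6% GC) is the only one of the 6 with TGCTGA, which 16.1% of all windows hold. The word starts 8 bases before the start site and is shown in capitals. CAGCTG, in 13.0% of all windows, lies 52 bases before the start.
Pde6b: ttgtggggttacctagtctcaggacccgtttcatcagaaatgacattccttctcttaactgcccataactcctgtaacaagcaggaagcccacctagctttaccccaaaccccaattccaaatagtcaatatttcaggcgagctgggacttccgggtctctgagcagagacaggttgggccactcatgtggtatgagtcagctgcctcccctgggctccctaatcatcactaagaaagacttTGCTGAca

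Pde6a stood at 7.33, 5.32 and 5.61 in the rhoGFP-positive, 4.74, 4.37 and 4.48 in the rhoGFP-negative and 4.74, 4.36 and 4.11 in the nestinGFP-positive replicates. The rhoGFP-positive arrays lay above the 6 others, the lower groups overlapped, and the rise rested largely on rhoGFP-positive replicate 1. All 3 group means (6.09, 4.53 and 4.41) were below log2 6.26, so Pde6a was dim throughout and its differences are compressed. The log2 difference was 1.55 ± 0.44 (SE, limma adjusted p = 0.0276) between the P4 fractions and 1.68 ± 0.44 (adjusted p = 0.0136) against the P0 group. Without rhoGFP-positive replicate 1 the first fell to 0.93 (adjusted p = 0.0107), under the minimum difference, and the second was 1.05. Without all 3 replicate 1 arrays the first was 1.04 (adjusted p = 0.0033) and stayed called. On each array the Pde6b value was set against that of Pde6a, and the change in this difference between groups was taken as the difference in response, which does not compare their levels. Pde6b exceeded Pde6a by 1.80 log2 units between the P4 fractions and by 3.25 against the P0 group, without overlap of the arrays, but how far the dim signal of Pde6a sets this gap was not tested. With 3 arrays against 3 the exact permutation test (two-sided, 20 regroupings) can give no p below 0.1, and both gave that value. Pde6b and Pde6g differed in response by -0.56 (exact permutation p = 0.4) between the P4 fractions, where the arrays overlapped. Against the P0 group the sign was opposite, at 0.31 without overlap (exact permutation p = 0.1, the smallest possible).

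Cnga1, which encodes the pore subunit of the rod channel, showed the largest rise of the set between the P4 fractions. Its values were 11.17, 11.21 and 10.88 in the rhoGFP-positive, 6.67, 6.18 and 5.61 in the rhoGFP-negative and 6.67, 6.08 and 6.31 in the nestinGFP-positive replicates. The lower groups overlapped throughout, and the gap to the rhoGFP-positive arrays exceeded 4 log2 units. The difference was 4.93 ± 0.25 (SE, limma adjusted p = 2.64e-06) between the P4 fractions and 4.73 ± 0.25 (adjusted p = 1.57e-06) against the P0 group. Among all genes these held ranks 2 and 4.

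Cngb1 encodes the second channel subunit, which sets the channel's response and its transport to the outer segment. It stood at 11.83, 11.97 and 11.76 in the rhoGFP-positive, 8.49, 8.21 and 7.44 in the rhoGFP-negative and 7.67, 7.55 and 6.54 in the nestinGFP-positive replicates. The rise was 14-fold between the P4 fractions (log2 3.81 ± 0.32 SE, limma adjusted p = 2.73e-05) and 24.3-fold against the P0 group (4.60 ± 0.32, adjusted p = 6.05e-06). Cnga1 exceeded Cngb1 in response by 1.12 between the P4 fractions without overlap of the arrays (exact permutation p = 0.1, the smallest possible). The response difference against the P0 group was 0.13 with overlap (exact permutation p = 0.7).

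The windows of both channel genes hold TAATCC. In Cnga1 (chr5:72642753-72643002, minus strand, 38.4% GC) it lies 228 bases before the start, and in Cngb1 (chr8:95306586-95306835, minus strand, 55.6% GC) it lies at 58 and again at 25 bases. The words are in capitals.
Cnga1: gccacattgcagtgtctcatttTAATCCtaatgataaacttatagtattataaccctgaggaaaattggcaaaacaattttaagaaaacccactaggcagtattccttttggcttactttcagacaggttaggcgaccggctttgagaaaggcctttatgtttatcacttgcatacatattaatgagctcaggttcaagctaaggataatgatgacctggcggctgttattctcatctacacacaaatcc
Cngb1: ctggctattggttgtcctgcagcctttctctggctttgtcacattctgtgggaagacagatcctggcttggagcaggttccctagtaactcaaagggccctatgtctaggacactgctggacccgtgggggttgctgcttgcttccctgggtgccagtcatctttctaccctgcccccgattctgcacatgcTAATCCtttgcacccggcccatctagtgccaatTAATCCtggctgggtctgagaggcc

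Slc24a1 (chr9:64922861-64951620) encodes the exchanger that trades sodium for calcium and potassium at the rod outer segment and binds the channel there. Its signal was dim: it lay on average at the 33.1st percentile of all probe sets of an array in the rhoGFP-positive group, and at the 5.78th and 7.34th in the rhoGFP-negative and nestinGFP-positive groups. The values were 5.61, 5.41 and 4.25 in the rhoGFP-positive, 3.25, 2.87 and 3.05 in the rhoGFP-negative and 3.02, 3.37 and 3.10 in the nestinGFP-positive replicates. Replicate 3 was the lowest rhoGFP-positive array and still lay above the 6 others. The difference was 2.03 ± 0.30 (SE, limma adjusted p = 0.000821) between the P4 fractions and 1.93 ± 0.30 (adjusted p = 0.000732) against the P0 group.

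**Figure D3:**
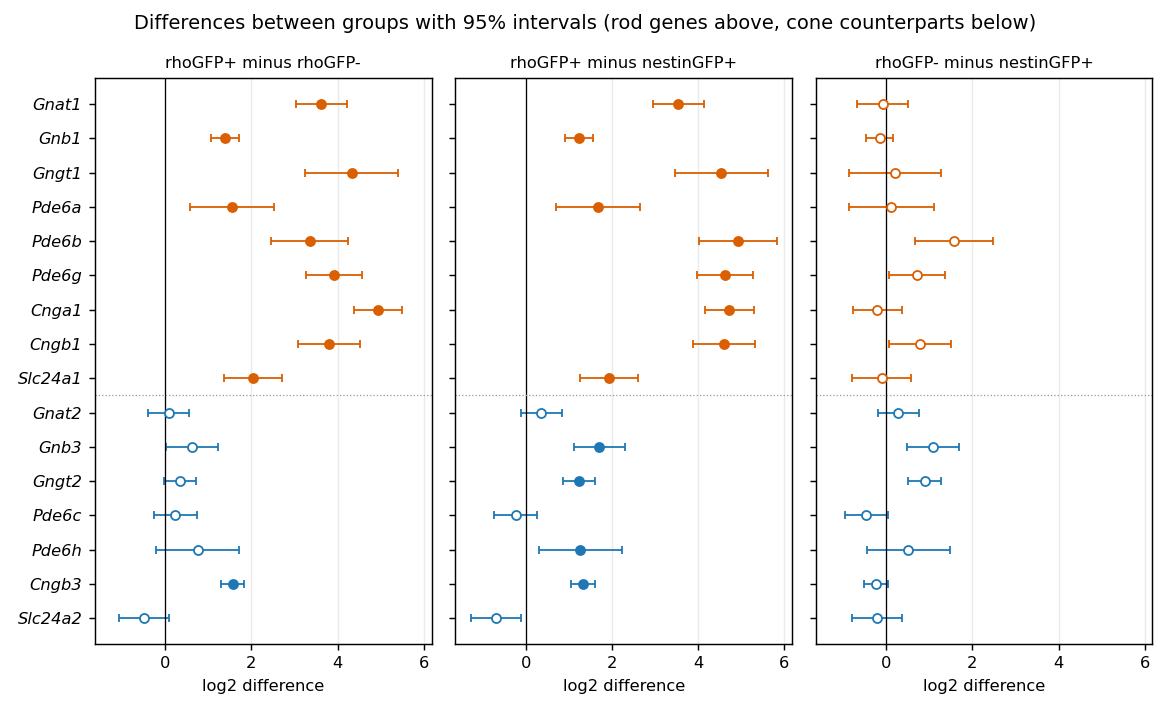
Log2 differences (horizontal axis) between each pair of groups for the 9 rod genes and, under the dotted line, their 7 measured cone counterparts, with 95% confidence intervals from limma over 9 arrays; filled points were called and open points were not. All 9 rod genes are called in the panels with the rhoGFP-positive group, and none in the panel of the rhoGFP-negative against the nestinGFP-positive group.

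The measured step from the P0 to the P4 cells outside the rod reporter gate was small for most of the set. Gnat1, Pde6a and Slc24a1 were dim in both of these groups, and Cnga1 was dim in the rhoGFP-negative group. RMA compresses differences at such signals, so a small measured step in these genes does not show a small change in expression. Comparing rhoGFP-negative with nestinGFP-positive cells, limma called 0 of the 9 genes in either direction, where 0.385% of all genes were called higher and 0.605% lower. At an unadjusted p below 0.05 there were 3 with a higher rhoGFP-negative mean, Pde6b, Cngb1 and Pde6g, where 8.26% of all genes passed in that direction. Pde6b differed by 1.58 ± 0.40 (SE; limma adjusted p = 0.0758), and its arrays did not overlap, as for 11.8% of all genes with the rhoGFP-negative side higher. Taken by replicate number, its difference was 1.63, 1.49 and 1.61. With the replicate number as a block Pde6b was called (limma adjusted p = 0.00352). No label ties the numbers of these groups to each other, and the likeness of their arrays ties them only in part. No other rod gene was called with the block, where 0.726% of all genes were called higher. It was also called without rhoGFP-negative replicate 3 (1.97, adjusted p = 0.018) or without nestinGFP-positive replicate 1 (1.90, adjusted p = 0.0442). Line, age and reporter differ together in this comparison and cannot be told apart.

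Cngb1 differed by 0.79 (95% interval 0.07 to 1.51, limma adjusted p = 0.231) and Pde6g by 0.71 (0.06 to 1.36, adjusted p = 0.232), and the arrays of both overlapped. The other 6 rod genes had intervals that include 0: Gngt1 at 0.21 (-0.87 to 1.28), Pde6a at 0.12 (-0.86 to 1.11), Gnat1 at -0.08 (-0.67 to 0.52), Slc24a1 at -0.10 (-0.78 to 0.57), Gnb1 at -0.15 (-0.47 to 0.17) and Cnga1 at -0.20 (-0.77 to 0.36). Intervals this wide do not show that levels were equal, and low signal compresses the differences of Gnat1, Pde6a, Slc24a1 and, in part, Cnga1.

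Cones use a parallel set of genes, which gives each rod gene a counterpart measured in the same RNA. Of 8 counterparts 7 were measured, and Cnga3, the cone channel pore subunit, was not analysed here. Between the P4 fractions limma called 1 of the 7 higher, Cngb3, the second cone channel subunit, where 3.61% of all genes were called higher. Cngb3 stood at 9.37, 9.24 and 9.24 in the rhoGFP-positive, 7.88, 7.54 and 7.74 in the rhoGFP-negative and 7.81, 8.09 and 7.96 in the nestinGFP-positive replicates. It rose by 1.56 ± 0.12 (SE, limma adjusted p = 1.77e-05) between the P4 fractions, and its arrays did not overlap.

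The cone transducin alpha gene Gnat2 was at 8.39, 8.75 and 8.43 in the rhoGFP-positive, 8.30, 8.11 and 8.91 in the rhoGFP-negative and 8.16, 8.40 and 7.91 in the nestinGFP-positive replicates. All 3 groups overlapped, and the difference between the P4 fractions was 0.081 (95% interval -0.40 to 0.56, limma adjusted p = 0.849). Its sign turned when rhoGFP-positive or rhoGFP-negative replicate 2 was left out. The cone beta gene Gnb3 was at 11.77, 12.70 and 12.84 in the rhoGFP-positive, 11.54, 12.01 and 11.89 in the rhoGFP-negative and 10.90, 10.81 and 10.46 in the nestinGFP-positive replicates. It was not called between the P4 fractions (0.62, adjusted p = 0.129), and it rose against the P0 group by 1.71 ± 0.26 (adjusted p = 0.000683).

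The cone gamma gene Gngt2, at 7.24, 7.25 and 7.73 in the rhoGFP-positive and 7.22, 7.17 and 6.82 in the rhoGFP-negative replicates, differed by 0.34 (limma adjusted p = 0.198) between the P4 fractions. It rose by 1.23 (adjusted p = 0.000305) against the P0 group, where its values were 6.31, 6.21 and 6.00. The cone phosphodiesterase genes Pde6c (catalytic) and Pde6h (inhibitory) differed by 0.23 (adjusted p = 0.545) and 0.75 (adjusted p = 0.274) between the P4 fractions. Pde6h was called against the P0 group at 1.27 (adjusted p = 0.0436) and lost the call in 6 of the 9 fits that left out 1 array (adjusted p up to 0.124), and Pde6c was at -0.23 (adjusted p = 0.462). The cone exchanger Slc24a2 was at -0.49 (adjusted p = 0.237) and -0.69 (adjusted p = 0.065), and its second probe set at 0.09 and 0.20. In the comparison with the P0 group limma thus called 4 of 7 counterparts, Cngb3 (1.33 ± 0.12, adjusted p = 2.58e-05) among them. Of all genes 5.06% were called higher there.

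Each rod gene's response was then set against that of its counterpart on the same arrays. In all, 13 pairs, 8 of them rod and cone, were compared in both contrasts. Where arrays did not overlap, the exact permutation p was the smallest the design allows, 0.1, or 0.13 after adjustment over the 26 comparisons, so none could pass 0.05. Differences that involve a dim gene are compressed. Pde6a, Slc24a1 and Slc24a2 were dim in all groups, and Gnat1 outside the rhoGFP-positive group. Cnga1 was dim in the rhoGFP-negative group and Gngt2 in the P0 group, and Pde6c was at the cut in the rhoGFP-negative group. Between the P4 fractions Gngt1 rose by 3.99 log2 units more than Gngt2, Gnat1 by 3.54 more than Gnat2, Pde6g by 3.16 more than Pde6h and Pde6b by 3.12 more than Pde6c. Slc24a1 changed by 2.52 more than Slc24a2, Cngb1 by 2.25 more than Cngb3 and Gnb1 by 0.76 more than Gnb3. Pde6a exceeded Pde6c by 1.32, with overlapping arrays (exact permutation p = 0.2). The largest gap against the P0 group was that of Pde6b over Pde6c, at 5.15, and Gnb1 was there at -0.47 relative to Gnb3 (exact permutation p = 0.3). Within transducin, Gnat1 exceeded Gnb1 by 2.24 and 2.31 in the 2 contrasts without overlap, and it was at -0.71 and -0.99 relative to Gngt1 with overlap (exact permutation p = 0.4 and 0.2).

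**Figure D4:**
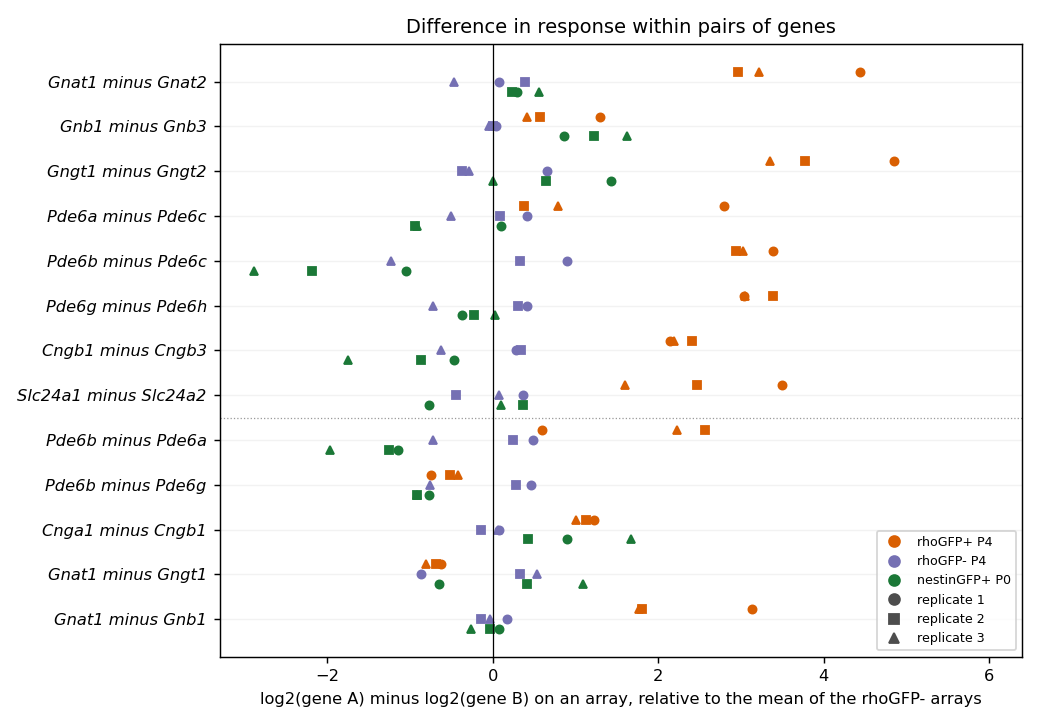
Log2 value of the first gene minus that of the second on each array (horizontal axis), relative to the mean of the rhoGFP-negative arrays, for 8 rod and cone pairs and, under the dotted line, 5 pairs within the rod set; colours are groups and shapes are replicates. The rhoGFP-positive points of the Gnat1, Gngt1, Pde6b and Pde6g pairs with their cone counterparts lie about 3 or more units to the right. Those of Pde6b minus Pde6g and Gnat1 minus Gngt1 overlap the rhoGFP-negative points.

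Proteins that work on or beside these gene products were counted from lists chosen by function. For all of these lists the shares over all genes were 3.61% called higher and 7.32% lower between the P4 fractions. They were 5.06% and 10.5% against the P0 group. Of 10 other phototransduction genes 7 were called higher and 0 lower between the P4 fractions, with a median of 1.65. The largest were Sag, the rod arrestin (3.60 ± 0.45 SE, limma adjusted p = 0.000291), Rcvrn, the calcium sensor recoverin (3.48 ± 0.48, adjusted p = 0.00053), and Gucy2e, a guanylate cyclase that restores cyclic GMP (2.57 ± 0.26, adjusted p = 9.01e-05). Against the P0 group 8 of 10 were called higher, led by Rcvrn (4.55), Sag (3.75) and Rgs9bp (3.49), the anchor of the complex that speeds GTP hydrolysis on transducin alpha.

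Of 13 genes that attach lipids to phosphodiesterase 6 and transducin or carry and fold these proteins, 3 were called higher and 0 lower between the P4 fractions, with a median of 0.54. They were Aipl1, a chaperone that phosphodiesterase 6 needs (2.44 ± 0.13 SE, limma adjusted p = 3.15e-06), Icmt, which methylates prenylated proteins (1.95 ± 0.16, adjusted p = 2.05e-05), and Unc119, which binds the acylated transducin alpha subunit (1.28 ± 0.19, adjusted p = 0.000724). Against the P0 group 5 of 13 were called, with Aipl1 at 2.75, Icmt at 2.38 and Unc119 at 2.31. Unc119 was also called in rhoGFP-negative against nestinGFP-positive cells (1.03, adjusted p = 0.0293). Of 11 genes for folding the G protein beta subunit and its partners, 1 was called between the P4 fractions, Ric8b, a G alpha chaperone (1.03, adjusted p = 0.00692), and 0 against the P0 group. At the channel, Prph2 and Rom1, which encode partner proteins of the disc rim, the first of them a binder of the channel's beta subunit, rose by 2.46 ± 0.56 (adjusted p = 0.0101) and 1.98 ± 0.41 (adjusted p = 0.00605). Ank3, which encodes the ankyrin that binds the channel's beta subunit, was 2.01-fold lower (adjusted p = 0.00132).

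**Figure D5:**
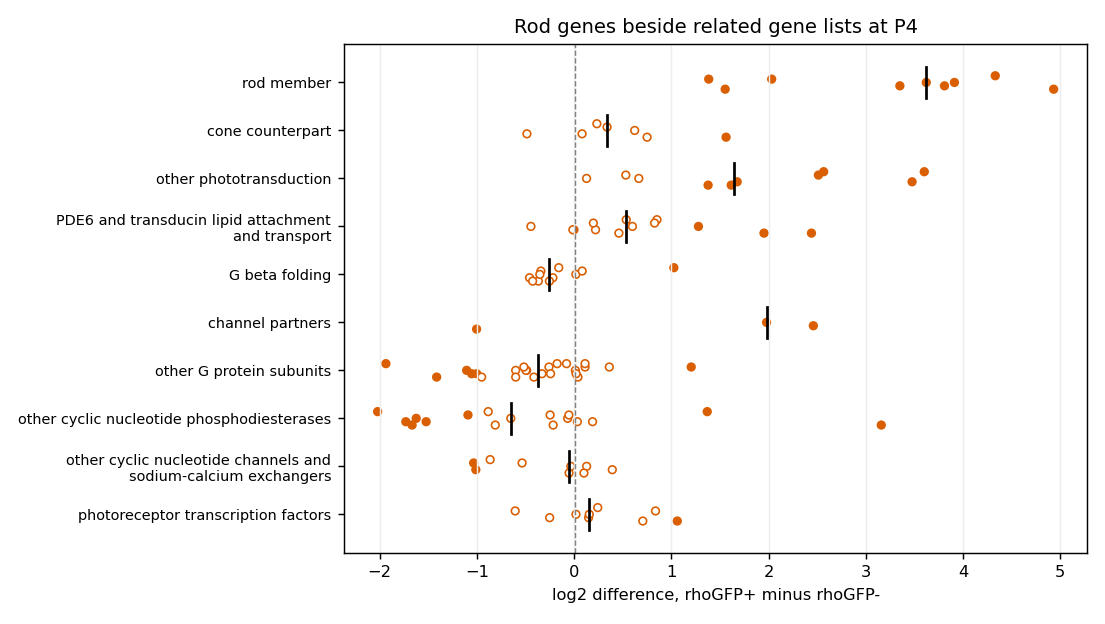
Log2 difference between the rhoGFP-positive and rhoGFP-negative groups (horizontal axis) for the genes of each list, with 1 point per gene, filled where limma called it, and the list's median as a black bar. The 9 rod genes have a median of 3.62 and the 7 cone counterparts a median of 0.34.

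The gate was checked against the transcription factors that make rods. Nrl, which commits a precursor to the rod fate, was at 13.58, 13.67 and 13.68 in the rhoGFP-positive, 12.72, 12.82 and 12.21 in the rhoGFP-negative and 11.68, 11.18 and 10.45 in the nestinGFP-positive replicates. It rose by 1.06 ± 0.27 (SE, limma adjusted p = 0.0185) between the P4 fractions, and the rhoGFP-negative cells were 1.48 above the P0 cells (adjusted p = 0.0314). The rhoGFP-negative fraction therefore also held a high Nrl signal. Crx, the photoreceptor homeodomain factor, was at 0.71 (adjusted p = 0.114) between the P4 fractions, at 2.07 (adjusted p = 0.000356) between the rhoGFP-positive and P0 groups and at 1.37 (adjusted p = 0.0478) between the rhoGFP-negative and P0 groups. Of 9 photoreceptor transcription factors, 1 was called higher between the P4 fractions and 4 against the P0 group, where Nrl (2.54), Crx (2.07) and Mef2d (1.55) led. The shares of all genes called higher were 3.61% and 5.06%.

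By likeness over the 9 arrays, among 10909 genes with a mean at or above the 40th percentile, the genes nearest to Gnat1 were Susd3 (Pearson r 0.995), Vtn (0.995) and Trim36 (0.993). Nearest to Pde6b were Crebl2 (0.998), Rd3 (0.997) and Pcare (0.997). Nearest to Cnga1 were Elfn1 (0.997), Ppargc1b (0.996) and Rabgef1 (0.995). The arrays fall into groups, so these values describe the step between groups and carry no test.

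Markers of other cells also differed, and most that were called fell where the rod genes rose. Between the P4 fractions 10 of 11 progenitor and 8 of 9 amacrine markers were called lower in the rhoGFP-positive group. The median progenitor marker ran from 8.08 to 8.83 on the rhoGFP-positive, from 10.3 to 10.8 on the rhoGFP-negative and from 11.0 to 11.3 on the nestinGFP-positive arrays. Also lower were 4 of 7 Müller glia, 3 of 9 vascular, 2 of 5 horizontal cell and 1 of 7 ganglion cell markers. Higher were 2 of 8 cone, 1 of 7 bipolar cell and 2 of 7 pigment epithelium markers. Of all genes 7.32% were called lower and 3.61% higher, so a count of 1 in so short a list says little. The median Müller glia marker ran from 7.18 to 8.71 on the rhoGFP-positive and from 10.05 to 10.62 on the rhoGFP-negative arrays. The median pigment epithelium marker ran from 6.24 to 6.37 and from 5.20 to 5.37. Such a median can pass from 1 gene to another. The median of the single-gene log2 differences was -1.39 for the Müller glia list and only 0.11 for the pigment epithelium list, where 5 of 7 were not called. The median microglia marker was 4.94, 5.42 and 6.68 in rhoGFP-positive replicates 1 to 3, with 0 of 8 called by limma. Replicate 3 was also the lowest rhoGFP-positive array for Gnat1, Pde6b, Pde6g, Cnga1, Cngb1 and Slc24a1. RMA values have no 0 and the table no detection calls, so no marker can be called absent. The part of these markers in the differences of the rod genes was not tested.

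The median value over all probe sets was 6.08 to 6.17 on the 9 arrays, and the median standard error of a difference was 0.14. The control probe sets for 18S ribosomal RNA averaged 12.1 to 13.6 on the 3 replicate 1 arrays and 9.65 to 10.4 on the other 6. Of the rhoGFP-positive arrays, replicate 1 was the highest for Gnat1, Gngt1, Pde6a, Pde6b, Pde6g and Slc24a1 and the lowest for Gnb1. Without the replicate 1 arrays, a check chosen after seeing these values, limma still called 9 of 9 rod genes in both comparisons of the rhoGFP-positive group, with Gnat1 at 3.21 and Gngt1 at 4.39 between the P4 fractions. The actin control, a sign of RNA integrity, had a 3′ minus 5′ difference of 0.847 to 0.975 in the rhoGFP-positive, 0.637 to 0.677 in the rhoGFP-negative and 0.403 to 0.991 in the nestinGFP-positive group.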

How the data were processed

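RNA of 9 pools of sorted retinal cells, 3 per group, was hybridised to microarrays. The values deposited by the authors are log2 values made with RMA, per the submitters' processing notes; neither its version nor scan batches are stated. RMA corrects background, quantile-normalizes and summarises probes, and it compresses low signals. Of 45101 probe sets, 34945 had 1 gene symbol in the platform annotation, and the one with the highest mean over 9 arrays stood for each of 18193 genes.

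One linear model with 3 group means over 9 arrays was fitted in limma 3.58.1 (R 4.3.3; lmFit, eBayes; two-sided), with Benjamini-Hochberg adjustment over all genes. Calls needed an adjusted p below 0.05 together with a log2 difference of 1 or more in size. P-values measure the spread between pools. Paired responses used exact permutation tests. The steps were tested on simulated data. The number of arrays limits the precision.

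The 9 genes and the 22 lists (212 symbols, 195 measured) were chosen with earlier results of these data known. Named were all 9 genes and their cone counterparts, up to 3 of the largest called differences each way per related list, the 3 genes most alike to each of Gnat1, Pde6b and Cnga1, and Nrl and Crx.

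Groups share replicate numbers, though no label ties a number to a shared pool. Same-numbered arrays deviated together between the P4 fractions (correlations 0.62, 0.45 and 0.45). The main fit held no replicate block, so its standard errors and p-values do not use this pairing. Only the replicate-block alternative did. For differences by number, numbers were taken as pairs between the rhoGFP-negative and P0 groups (0.54, 0.15 and 0.23), where the data bear this out only in part. There rhoGFP-negative replicate 2 was closer to P0 replicate 3 (0.22) than to P0 replicate 2 (0.15). These groups differ in line and age, so a shared number cannot mean a shared pool of mice. Between the rhoGFP-positive and P0 groups the correlations were 0.52, -0.0081 and 0.25, and no differences were taken by number. Alternatives were a common median, cyclic loess, averaging a gene's probe sets, leaving out _x_at and _s_at probe sets or dim genes, a fit of the 6 arrays compared, the replicate block, trended and robust eBayes, other thresholds and leaving out each array. Promoter windows and gene coordinates are those of RefSeq (GRCm38.p6).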

Additional observations from a re-analysis of the deposited data

How the results depend on the processing

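The 9 of 9 rod genes called in each comparison of the rhoGFP-positive group became 8 of 9 where Pde6a lost its call, and Pde6a was the only one to do so. Between the P4 fractions it missed the call with only the 6 arrays compared (adjusted p = 0.0576), at an adjusted p threshold of 0.01 (as it did against the P0 group), and without rhoGFP-positive replicate 1 or rhoGFP-negative replicate 2 or 3. Leaving out 1 array gave 8 to 9 called between the P4 fractions, 9 against the P0 group and 0 to 1 in rhoGFP-negative against P0 cells. With dim genes (under the 40th percentile) left out, Pde6a and Slc24a1 were not tested. The 7 calls among the rest support nothing further. Gnat1 passed this filter only through its rhoGFP-positive arrays. Cnga1, with lower group means of 6.15 and 6.36 around the cut of log2 6.26, passed largely through them. In the comparison of rhoGFP-negative with P0 cells the count was also 1 with the replicate block, which changed no other call of a rod gene; in each case the gene was Pde6b. The block also called the counterpart Gnb3 there (1.09, adjusted p = 0.0151).

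Values with no call changed sign in a few settings. Leaving out 1 array moved Gnat2 between the P4 fractions from -0.082 to 0.32. Between the rhoGFP-negative and P0 groups the ranges were -0.22 to 0.65 for Gngt1, -0.023 to 0.29 for Pde6a, -0.46 to 0.069 for Cnga1 and -0.34 to 0.060 for Slc24a2; Slc24a2 was 0.15 without the replicate 1 arrays. The response of Cnga1 minus Cngb1 against the P0 group ran from -0.16 to 0.46 with 1 array left out, and that of Gnat1 minus Gngt1 between the P4 fractions was 0.11 with the mean of all probe sets. The causes were not tested. Of 951 single-gene alternatives 921 kept direction and call.

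The counts over all genes between the rhoGFP-negative and P0 groups, 70 higher and 110 lower, moved most: 132 and 321 with the block, 13 and 15 with only 6 arrays, 173 and 197 with no minimum difference, 10 and 13 at 0.01, and 8 to 143 and 11 to 414 with 1 array left out. With no minimum difference the counts were 1830 and 2587 between the P4 fractions, against 656 and 1332, and 2906 and 3602 against the P0 group, against 921 and 1917. Dim signals limit Slc24a1, Pde6a and the lower groups of Gnat1 and Cnga1.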

Other observations

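Of 17 other cyclic nucleotide phosphodiesterases limma called 2 higher, 6 lower and 9 not at all in the rhoGFP-positive against the rhoGFP-negative group, where 3.61% of all genes were called higher and 7.32% lower, with a median log2 difference of -0.65. The genes that rose encode the cyclic AMP enzymes Pde8b (3.16 ± 0.21 SE, limma adjusted p = 8.36e-06) and Pde8a (1.37 ± 0.18, adjusted p = 0.000356). Pde8b stood at 9.60, 9.29 and 9.22 in the rhoGFP-positive replicates and no higher than 6.71 elsewhere. The largest falls were in Pde1c, a calmodulin-dependent enzyme (-2.02 ± 0.20, adjusted p = 7.72e-05), Pde5a, which breaks down cyclic GMP (-1.73 ± 0.15, adjusted p = 3.53e-05), and Pde4d, a cyclic AMP enzyme (-1.67 ± 0.13, adjusted p = 1.84e-05). Against the P0 group 2 were higher, Pde8b at 3.48 and Pde8a at 1.43, and 8 were lower, led by Pde4b (-2.79), Pde9a (-2.78) and Pde1c (-2.43). Of all genes 5.06% were called higher and 10.5% lower there. Pde4b (-1.91) and Pde9a (-1.26) were also called lower between the rhoGFP-negative and P0 groups.

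Of 24 other G protein subunits 1 was called higher, 5 lower and 18 not at all between the P4 fractions, and the share called higher is near that of all genes. Between these fractions 3.61% of all genes were called higher and 7.32% lower. Gng13, a gamma subunit known from ON bipolar and taste cells, was at 1.20 (adjusted p = 0.00196), and the gamma genes Gng2 (-1.94) and Gng3 (-1.41) and the inhibitory alpha gene Gnai3 (-1.11) had the largest falls. Of 9 other cyclic nucleotide channels and sodium-calcium exchangers 0 were called higher by limma, 7 were not called and 2 were lower, the pacemaker channel Hcn3 (-1.03) and the exchanger Slc8a1 (-1.01).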
